A study of Mus musculus with 24 samples.

Results

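The genes described here are 10 iron handling genes of the mouse, namely Trf, Tfrc, Tfr2, Fth1, Ftl1, Hamp, Slc40a1, Slc11a2, Cp and Heph. They were chosen by symbol, and each symbol had 1 row in all 3 expression tables, which list 31053, 25876 and 20729 genes. The cells came from livers of adult wild-type BALB/c mice of 6 to 8 weeks. Hepatocytes were purified on Percoll and by removal of EpCAM+ cells, and were sequenced at once (Pri-Hep) or grown in Matrigel as hepatocyte organoids (Hep-Orgs) to passage 1, 5 and 10 (P1, P5, P10) in Hep-Med, a hepatocyte medium with EGF, HGF and FGF that was supplemented with the Notch inhibitor DAPT and dexamethasone. EpCAM+ cells of the liver were grown in Matrigel as cholangiocyte organoids (Cho-Orgs) to P0, P5 and P10 in a medium with R-spondin1, Noggin, Wnt3a, EGF, FGF10, HGF and forskolin. Each of these groups held 3 bulk libraries. A further 3 Smart-Seq libraries, 1 each of hepatocyte organoids with a grape-like, an intermediate or a round-like shape, had no replicates. These organoids were picked by shape at P0 from an earlier Hep-Med without DAPT and dexamethasone. The 3 bulk libraries of a group were described as biological replicates, in one place as coming from separate mice and in another as coming from separate cell cultures, and p-values measure the spread between these libraries.

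Iron travels in plasma bound to transferrin and enters cells by the transferrin receptor. Inside the cell it is stored in ferritin, a shell of heavy and light chains, and it leaves by ferroportin, the product of Slc40a1. Ferroxidases oxidize iron as it is exported, and hepcidin, the product of Hamp, is a hormone of the hepatocyte that removes ferroportin from the cell surface. Hepatocytes are the main source of plasma transferrin, hepcidin and ceruloplasmin in the body. Many of the mRNAs for uptake, storage and export carry an iron-responsive element, a short hairpin to which iron regulatory proteins bind when iron is low. Binding before the coding sequence blocks translation, and binding after it slows the decay of the mRNA.

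That hairpin is the sequence shared among the uptake, storage and export genes, and it is shown here because 4 of the 10 genes carried it. The GENCODE M21 transcripts of 21877 protein-coding genes were searched on the transcript strand for the loop CAGTGN with 5 bases on each side that pair, G with T allowed, and an unpaired C before them. A match was found in 294 genes (1.34%), in the 5′ UTR of 31 of them (0.142%) and in the 3′ UTR of 129 (0.59%). Among the 10 genes, Fth1, Ftl1 and Slc40a1 had 1 match each in the 5′ UTR, and Tfrc had 4 in the 3′ UTR, while no match says only that these letters were not found. The sites are given 5′ to 3′ on the transcript strand with 30 bases each, the loop in capitals.
Fth1 5′ UTR: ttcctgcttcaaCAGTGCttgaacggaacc
Ftl1 5′ UTR: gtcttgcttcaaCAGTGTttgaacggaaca
Slc40a1 5′ UTR: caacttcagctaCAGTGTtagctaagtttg
Tfrc 3′ UTR, site 1: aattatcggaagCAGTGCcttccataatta
Tfrc 3′ UTR, site 2: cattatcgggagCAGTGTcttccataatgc
Tfrc 3′ UTR, site 3: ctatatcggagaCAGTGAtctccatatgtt
Tfrc 3′ UTR, site 4: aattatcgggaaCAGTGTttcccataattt

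On the GRCm38 assembly these windows are at chr19:9982732-9982761 on the plus strand for Fth1, at chr7:45459778-45459807 on the minus strand for Ftl1 and at chr1:45925464-45925493 on the minus strand for Slc40a1. The Tfrc windows are on the plus strand at chr16:32631219-32631248, chr16:32631598-32631627, chr16:32631663-32631692 and chr16:32631710-32631739. The 5 paired letters before the loop, ttcaa, and after it, ttgaa, are the same in Fth1 and Ftl1. The RefSeq promoter windows, of 250 bases before to 50 after a start on GRCm38.p6, were searched on both strands and held the pattern in 50 of 32851 windows (0.152%). Windows were matched for 6 of the 10 genes, and none of these held it.

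The gene with the largest fall in the Cho-Orgs was Hamp, and its promoter is shown for that reason. The 250 bases before the start in the RefSeq window, at chr7:30944030-30944279 on the minus strand of GRCm38.p6, are given 5′ to 3′ on the gene's strand. Capitals mark GGCGCC, the core of elements that answer bone morphogenetic protein signalling in this promoter, at 109 to 104 bases before the start, and TTCNNNGAA, the core bound by STAT factors, at 97 to 89 bases before it.
Hamp promoter: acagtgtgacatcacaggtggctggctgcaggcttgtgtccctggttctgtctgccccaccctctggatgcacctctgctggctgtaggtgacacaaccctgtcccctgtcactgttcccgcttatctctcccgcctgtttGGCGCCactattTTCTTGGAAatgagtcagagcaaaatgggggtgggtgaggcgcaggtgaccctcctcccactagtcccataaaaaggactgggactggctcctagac

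Of all 32851 windows, 11.9% held GGCGCC and 8.3% held TTCNNNGAA on either strand, and 0.645% held both. GGCGCC reads the same on both strands, and neither of these motifs overlaps the other in Hamp. Among the 6 genes with windows, 2 (Hamp and Tfrc) held GGCGCC and 1 (Hamp) held TTCNNNGAA. The matches describe letters and not bound sites.

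Levels were given as FPKM, that is, fragment counts scaled by gene length and by the size of the library. Recovered totals were 14068906 to 27160365 fragments in the table of Pri-Hep and Hep-Orgs, and estimated totals were 36890000.0 to 38800000.0 for the Cho-Orgs and 37580000.0 to 39530000.0 for the Smart-Seq table. Each table was normalized on its own, so levels are set side by side across tables without a test. The Pri-Hep libraries went against their label in the markers: 10 hepatocyte markers summed to 609.7 to 643.1 FPKM, while 10 cholangiocyte markers summed to 3917 to 4011 FPKM, with Krt19, a keratin of bile ducts, at 237 ± 6.66 FPKM (SD, n = 3). The same sums in the Hep-Orgs were 622.8 to 671.6 and 3864 to 4082 FPKM, so these libraries went against their label in the same way. In the Cho-Orgs the hepatocyte sum was 7235 to 8204 FPKM at P0, 204.4 to 250.3 at P5 and 78.15 to 83.76 at P10, against cholangiocyte sums of 5162 to 6574, 3560 to 3695 and 3411 to 3441 FPKM. The P0 libraries of the Cho-Orgs thus went against their label too, with the hepatocyte sum above the cholangiocyte sum. In bulk libraries fewer cells of a type and less RNA per cell cannot be told apart.

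Between P0 and P10 of the Cho-Orgs the genes for plasma iron proteins and for the sensing of transferrin fell the most, and hephaestin and DMT1 rose. Trf fell 44.1-fold, Cp 9.31-fold and Tfr2 11.5-fold in mean FPKM, and Hamp ended at 1 fragment per library. Of the 10 genes, 5 fell, 2 rose and 3 did not pass the test from P0 to P5, where 56.6% of all 11593 genes tested were called, 22.6% lower and 34% higher. With median-ratio size factors 3212 of 6572 called genes were higher in that step, against 3938 of 6559 as deposited. From P5 to P10, 6 fell, 1 rose and 3 did not pass, against 61.5% called, 30.5% lower and 31% higher. Over the whole span 8 fell and 2 rose, against 72.3% called, 31.3% lower and 41% higher. The median log2 fold change of the 10 genes was -0.46, -0.49 and -1.19 in these comparisons, beside 0.06, 0.01 and 0.07 for all genes tested. The tests were limma on log2(FPKM + 1) with Benjamini-Hochberg adjustment over all genes tested, and each fold change given below in log2 is on that scale, which understates the change of low genes. The 3 comparisons share libraries.

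**Figure D1:**
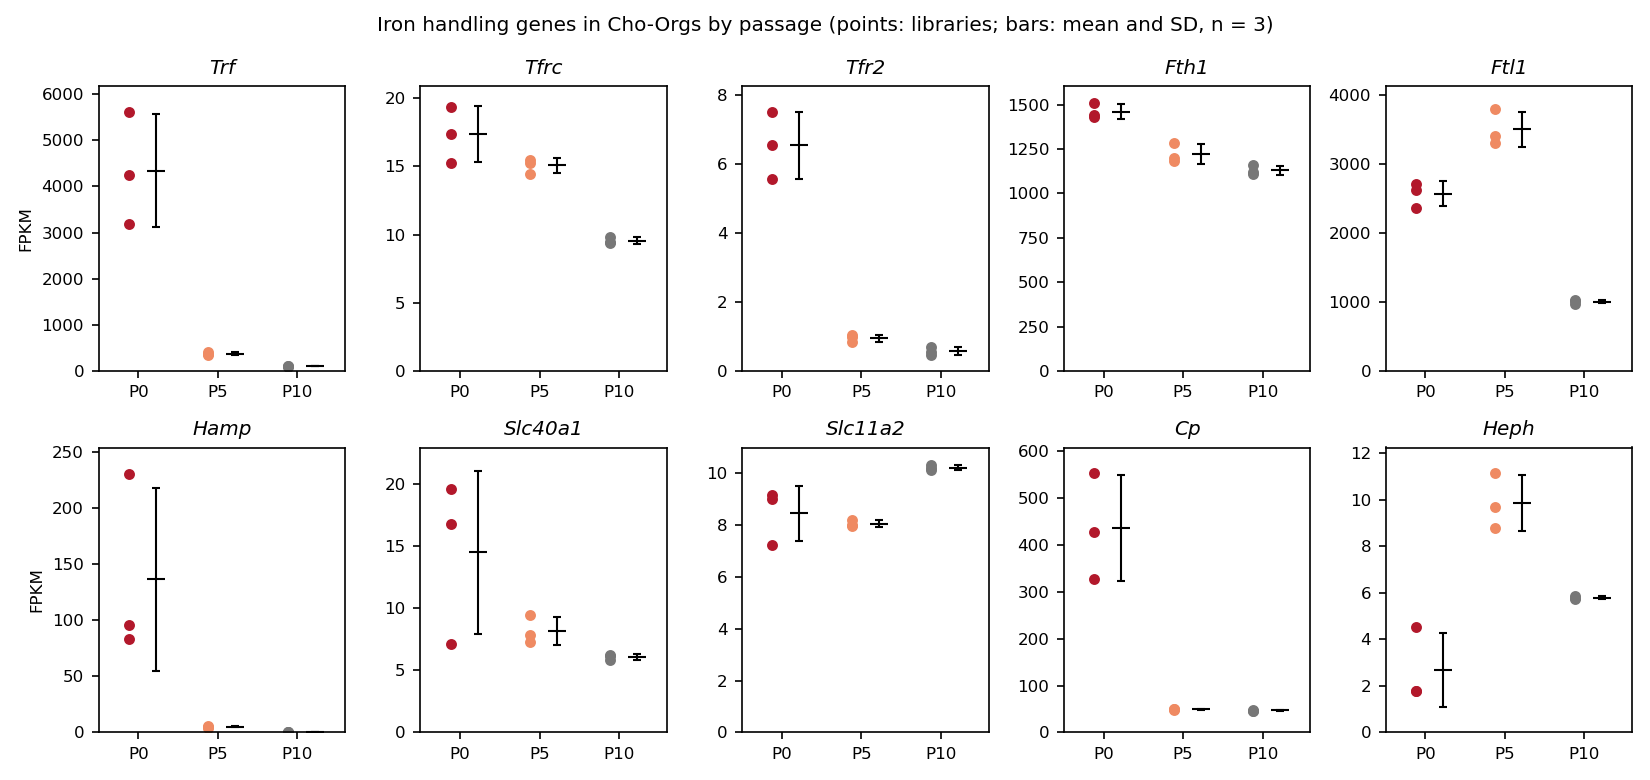
FPKM of the 10 iron handling genes in Cho-Orgs at P0, P5 and P10, 1 panel per gene with its own linear axis from 0; points are the 3 libraries of a passage and bars the mean and SD. Trf, Cp, Hamp and Tfr2 drop after P0, Heph is highest at P5, and Ftl1 drops between P5 and P10 from a mean of 3504 to 1005 FPKM.

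Trf, transferrin itself, lies on the minus strand of chromosome 9 (103204001 to 103230444, mm10). It was at 3174, 5607 and 4247 FPKM in the P0 libraries, at 347, 416 and 369 FPKM at P5 and at 100.4, 99.5 and 95.4 FPKM at P10. No 2 passages overlapped, and the P0 libraries spread over a wider range than the later ones. The mean of 4343 ± 1219 FPKM at P0 (SD, n = 3) was 11.5-fold that of 377 ± 34.8 at P5, a log2 change of -3.49 (SE 0.17, limma adjusted p = 1.99e-07). A further fall of 3.83-fold to 98.5 ± 2.67 FPKM followed at P10 (-1.92 in log2, limma adjusted p = 8.85e-06). In the P0 libraries Trf made up 0.721% to 1.29% of all summed FPKM.

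Tfrc encodes the transferrin receptor by which most cells take up iron, on chromosome 16 (32608920 to 32632794, plus strand). Its FPKM was 15.3, 19.4 and 17.4 at P0, 15.5, 15.3 and 14.5 at P5, and 9.85, 9.42 and 9.38 at P10. The P0 and P5 libraries overlapped, and the P10 libraries were below both. The difference from P0 to P5 was -0.18 in log2 (limma adjusted p = 0.0628), and it passed the test without replicate 1 of every passage (-0.29, adjusted p = 0.0157) and with median-ratio size factors (-0.26, adjusted p = 0.0237). From P5 to P10 Tfrc fell 1.58-fold (-0.61, SE 0.08, limma adjusted p = 9.95e-05).

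Tfr2, the second transferrin receptor, is a sensor of iron-loaded transferrin that hepatocytes and erythroid cells express. It was at 7.52, 5.58 and 6.57 FPKM at P0, at 0.829, 0.982 and 1.03 at P5, and at 0.697, 0.468 and 0.553 at P10. All P0 libraries were above all others, and P5 and P10 did not overlap but lay close. The fall to P5 was 6.92-fold (-1.95 in log2, SE 0.10, limma adjusted p = 3.56e-07). That from P5 to P10 was 1.66-fold (-0.31, adjusted p = 0.0234), and it did not pass without a filter on low genes (adjusted p = 0.0589) or without replicate 2 (-0.25, adjusted p = 0.087).

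The ferritin chains moved in opposite directions from P0 to P5, and both were lower at P10 than at P0. Fth1, the heavy chain with ferroxidase activity, is encoded on chromosome 19 (9982703 to 9985092, plus strand in the deposited annotation). It stood at 1430.3, 1508 and 1442 FPKM at P0, 1181, 1283 and 1198 at P5, and 1123, 1109 and 1158 at P10, so that its whole range over 9 libraries was from 1109 to 1508 FPKM. It fell 1.2-fold from P0 to P5 (-0.26, SE 0.05, limma adjusted p = 0.00149), while the log2 difference of -0.11 from P5 to P10 did not pass (adjusted p = 0.0742). It passed with TPM scaling (adjusted p = 0.0479), with median-ratio size factors (adjusted p = 0.0406) and in a fit of those passages alone (adjusted p = 0.0302).

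Ftl1, the light chain, which helps to form the iron core, lies on chromosome 7 (45457944 to 45459884, minus strand). It was at 2717, 2365 and 2626 FPKM at P0, at 3312, 3795 and 3405 at P5, and at 975, 1019 and 1021 at P10. The P5 libraries were the highest and the P10 libraries the lowest, without overlap. Ftl1 rose 1.36-fold from P0 to P5 (0.45, SE 0.07, limma adjusted p = 0.000416) and then fell 3.49-fold (-1.80, SE 0.07, adjusted p = 7.74e-08), which was the smallest adjusted p of the 10 genes from P5 to P10. Ftl1 has copies without introns in the genome, and how reads that match several copies were counted is not given in the sources used here. The copy Ftl1-ps2 was at 0 to 0.084 FPKM in the Cho-Orgs, and the copy Ftl1-ps1 at 5.64 to 7.17 FPKM in Pri-Hep and Hep-Orgs.

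The ratio of Fth1 to Ftl1 within a library does not depend on how that library was scaled. It was 0.571 ± 0.0588 at P0, 0.349 ± 0.00958 at P5 and 1.12 ± 0.0329 at P10 (SD, n = 3 each), and no 2 passages overlapped. The ratio thus went down and then up. A slope in log2 over the 3 passages, 0.49 per step, was given p = 0.118 by an exact permutation of the 9 libraries, two-sided, with 1680 arrangements (the smallest p it can give is 0.00119), but a slope does not describe such a course, and that p does not bear on whether the passages differed. In Pri-Hep and Hep-Orgs the ratio was 2.37 to 2.56 in all 12 libraries, and in the Smart-Seq libraries it was 0.575 for grape-like, 0.754 for intermediate and 0.633 for round-like organoids. The tables may use different gene lengths, which shifts this ratio between tables but not within one. How each table counted reads of the Ftl1 copies is not given either. Both chains together made up 0.925% ± 0.0289 of summed FPKM at P0, 1.12% ± 0.0722 at P5 and 0.501% ± 0.00456 at P10.

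**Figure D2:**
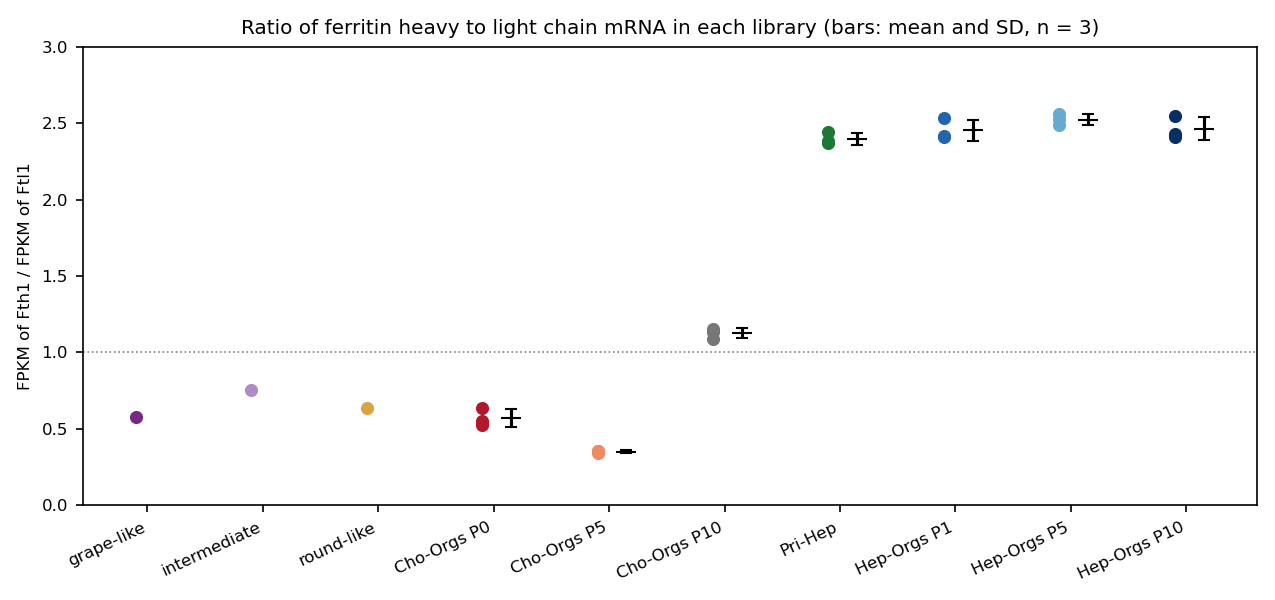
Ratio of Fth1 to Ftl1 FPKM (vertical axis, linear, no unit) in each of the 24 libraries by group; points are libraries, bars the mean and SD of 3 libraries, and the dotted line marks equal FPKM. The Cho-Orgs pass from 0.571 at P0 to 0.349 at P5 and 1.12 at P10, while Pri-Hep and Hep-Orgs stay between 2.37 and 2.56.

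Hamp encodes hepcidin and lies on the minus strand of chromosome 7 (30942368 to 30944032), downstream of the promoter shown above. In the P0 libraries it was at 83.02, 230.5 and 96.0 FPKM, and at P5 at 5.40, 4.38 and 5.26 FPKM. At P10 it was at 0.0644, 0.0655 and 0.0656 FPKM, which is 1 fragment in each library, under the 3 fragments taken as the floor. No passages overlapped, and replicate 2 of P0 stood above the other P0 libraries. The fall from P0 to P5 was 27.2-fold (-4.37 in log2, SE 0.30, limma adjusted p = 2.47e-06) and was 16.8-fold (-3.83) without replicate 2. Against P10 the ratio of summed fragments was 2090.4 for P0 (95% exact counting interval 715 to 10139; 1375 without replicate 2, 380.3 to 11359) and 76.2 for P5 (25.8 to 372). The fitted log2 change from P0 to P10 of -6.86 (adjusted p = 4.29e-08) depends on the pseudocount and was -9.54 with 0.1 in place of 1. Hamp2, a near-identical neighbour, was at 0.804 to 3.38 FPKM at P0, and reads of both genes can be hard to tell apart.

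Slc40a1, ferroportin, is on chromosome 1 (45908068 to 45926523, minus strand). Its P0 libraries were at 7.08, 19.6 and 16.8 FPKM, its P5 libraries at 7.26, 9.41 and 7.82, and its P10 libraries at 6.23, 6.15 and 5.79. Replicate 1 of P0 lay with the P5 libraries and the other P0 libraries far above them. From P0 to P5 the difference was -0.65 in log2 (SE 0.28, limma adjusted p = 0.0727), and it passed without replicate 1 (-0.998, adjusted p = 0.000489) and with a replicate block (adjusted p = 0.0464). From P5 to P10 it was -0.37 (adjusted p = 0.281), with -0.46 and an adjusted p of 0.00947 without replicate 1, and an adjusted p of 0.0025 in a fit of P5 and P10 alone. Over the whole span Slc40a1 fell 2.39-fold (-1.03, SE 0.28, adjusted p = 0.00825), and this did not pass without replicate 2 (-0.77, adjusted p = 0.0641) or replicate 3 (-0.84, adjusted p = 0.114).

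Slc11a2 encodes DMT1, which moves ferrous iron across the membranes of the gut cell and the endosome. It was at 7.23, 9.16 and 8.99 FPKM at P0, 8.20, 7.97 and 7.995 at P5, and 10.1, 10.2 and 10.3 at P10. The P10 libraries were above all others, and P0 and P5 overlapped. The difference from P0 to P5 was -0.06 in log2 (limma adjusted p = 0.548), and Slc11a2 rose 1.27-fold from P5 to P10 (0.31, SE 0.08, adjusted p = 0.00587). Without replicate 3 neither this rise (0.30, adjusted p = 0.0661) nor that from P0 to P10 (0.29, adjusted p = 0.0603) passed, and with median-ratio size factors that from P0 to P10 (0.16, adjusted p = 0.118) did not.

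The ferroxidases went opposite ways. Cp, ceruloplasmin, the copper protein by which most plasma ferroxidase activity is provided, is on chromosome 3 (19957054 to 20009145, plus strand). It was at 327, 553 and 426 FPKM at P0, 47.3, 50.15 and 50.15 at P5, and 47.9, 46.5 and 45.9 at P10. It fell 8.85-fold to P5 (-3.09, SE 0.15, limma adjusted p = 2.01e-07), after which the libraries of P5 and P10 overlapped (-0.07, SE 0.15, adjusted p = 0.699). Unlike Trf, Hamp and Tfr2, Cp thus had its whole called fall before P5.

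Heph, hephaestin, the membrane-bound relative of ceruloplasmin on the X chromosome (96455359 to 96574485, plus strand), was at 1.79, 1.78 and 4.53 FPKM at P0, 8.79, 9.68 and 11.2 at P5, and 5.86, 5.76 and 5.77 at P10. All P5 libraries were above all others, and P0 replicate 3 stood above the other P0 libraries. It rose 3.66-fold from P0 to P5 (1.63, SE 0.23, limma adjusted p = 0.00022) and fell 1.7-fold from P5 to P10 (-0.67, adjusted p = 0.0262). That fall did not pass without a filter (adjusted p = 0.0777) or without replicate 1 (-0.75, adjusted p = 0.0552) or replicate 2 (-0.68, adjusted p = 0.0851). From P0 to P10 Heph rose 2.15-fold (0.96, adjusted p = 0.00352), the largest rise of the 10 genes, and without replicate 3 the rise was 3.26-fold (1.29).

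**Figure D3:**
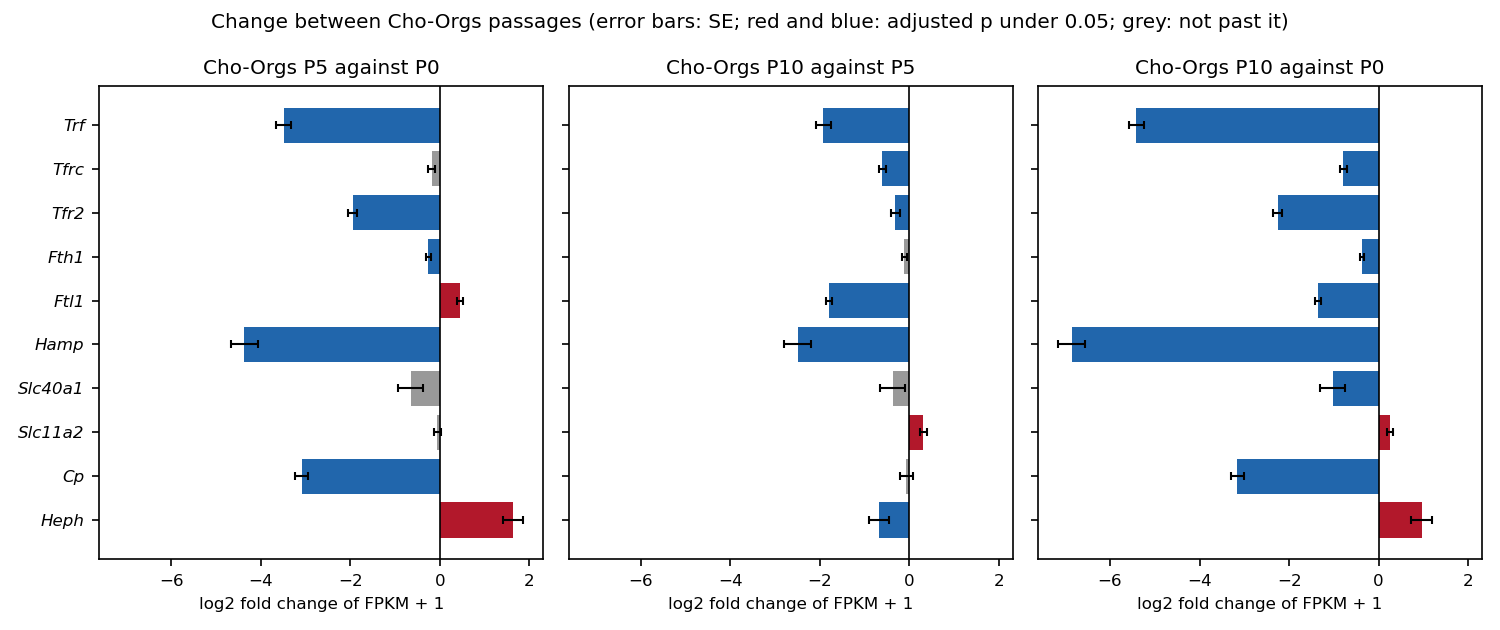
Log2 fold change of FPKM + 1 (horizontal axis) of the 10 iron handling genes between Cho-Orgs passages, with the SE as error bars; red and blue bars passed an adjusted p of 0.05, grey bars did not. Trf, Hamp, Cp and Tfr2 have the longest bars to the left at P5, and the change of Cp from P5 to P10 did not pass the test.

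In the P0 group, replicate 2 had the highest level of 7 of the 10 genes, Trf, Tfrc, Fth1, Hamp, Slc40a1, Slc11a2 and Cp, and replicate 1 of 2. The sums of other markers moved with the passages too. Proliferation markers summed to 351.9 to 521.7 FPKM at P0, 191.5 to 196.2 at P5 and 84.81 to 91.56 at P10, and stellate cell markers to 64.62 to 79.36, 7.581 to 8.419 and 0.1744 to 0.2387 FPKM. Macrophage markers summed to 43.78 to 49.48, 72.06 to 77.34 and 10.06 to 10.53 FPKM, and Cd68, a lysosomal protein that other cells also make, was the most abundant of the 12 in each passage. Lyz2 was at 13.2 ± 3.17 FPKM at P0 and at 0 at P5 and P10, C1qa, C1qb, C1qc and Adgre1 were at means of 0.391 to 0.755 FPKM at P0 and at 0 at P5, and Clec4f, Timd4 and Vsig4 were at 0 in all groups. Alb, albumin, went from 4994 ± 406 FPKM at P0 to 79.5 ± 12.4 at P5 and 0.584 ± 0.0579 at P10. The part of the hepatocyte, stellate, macrophage and proliferation levels in the falls of Trf, Cp, Hamp and Tfr2 was not tested.

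The genes whose pattern was most like that of Hamp and Heph over the 9 Cho-Orgs libraries were named by the correlation of log2(FPKM + 1), among 11583 other genes. For Hamp they were Cald1 (Pearson r = 0.998), Serpine2 (0.997) and Gm52720 (0.997). For Heph they were Plac8 (0.992), Myh14 (0.99) and Atp13a3 (0.985). The libraries fall into 3 passages, so such values describe the order of the passages, and 458 genes had a correlation over 0.95 with Hamp and 52 with Heph.

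A list of 73 other iron genes, ordered by role, had 72 in the Cho-Orgs table and 65 tested. From P0 to P5, 16 rose and 23 fell, from P5 to P10, 13 rose and 29 fell, and from P0 to P10, 16 rose and 33 fell, with medians of -0.07, -0.11 and -0.19 in log2. The shares called, 60.0%, 64.6% and 75.4%, were near the 56.6%, 61.5% and 72.3% of all genes tested, and the shares lower were 35.4%, 44.6% and 50.8% beside 22.6%, 30.5% and 31.3%. Among 8 tested genes of the transferrin cycle and uptake, 7 fell and 1 rose from P0 to P10 (median -1.34), where 31.3% of all genes tested fell and 41% rose. Of 10 genes of heme recycling and export, 6 fell and 2 rose (median -0.42). Of 16 genes of hepcidin control, 6 rose and 6 fell (median -0.02), and of 12 genes of mitochondrial iron, 2 rose and 3 fell (median -0.03). All 5 genes of hypoxia and NRF2 control fell (median -0.42), of 8 genes of heme synthesis 2 rose and 4 fell (median -0.08), and of 3 genes of storage and ferritinophagy 2 rose and 1 fell (median 0.25).

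Hp, haptoglobin, which binds free hemoglobin, fell from 531 ± 47.7 FPKM at P0 to 7.37 ± 0.534 at P5 and 0.177 ± 0.127 at P10. Hpx, hemopexin, which binds heme, fell from 81.0 ± 21.2 to 0.886 ± 0.39 FPKM at P5 (-5.43 in log2, limma adjusted p = 2.79e-08). Lcn2, which binds siderophores, fell from 6426 ± 2075 to 497 ± 27.8 FPKM over the same step. These are secreted proteins, as are transferrin and ceruloplasmin. Among the genes that rose from P0 to P5 were the mitochondrial iron importers Slc25a37, from 17.4 ± 0.353 to 37.1 ± 2.61 FPKM, and Slc25a28, from 11.6 ± 0.644 to 21.1 ± 0.876, and Il6ra, a receptor chain for interleukin-6, from 0.68 ± 0.142 to 2.00 ± 0.285.

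On log2(FPKM + 1) the largest called falls from P5 to P10 after Hp were in Cybrd1 and Ncoa4. Cybrd1, a ferric reductase, fell from 11.3 ± 0.984 to 1.05 ± 0.0522 FPKM. Ncoa4, the receptor that takes ferritin to lysosomes, fell from 84.7 ± 4.01 to 19.1 ± 0.921 FPKM. That scale ranks low genes lower, and Bmp2 had a larger fold in FPKM than Ncoa4, from 2.44 ± 0.482 to 0.409 ± 0.0713. Ncoa4 had been at 83.7 ± 19.7 FPKM at P0, so its fall came in the same step as that of Ftl1. On log2(FPKM + 1) the largest called rise was in Steap2, a metalloreductase, from 8.20 ± 0.447 to 16.1 ± 0.337 FPKM. Smad7, an inhibitor of SMAD signalling, was next, from 2.80 ± 0.245 to 5.66 ± 0.3 FPKM. It had been at 6.07 ± 2.26 FPKM at P0, where its range of 4.66 to 8.68 held its P10 libraries. Cpox, an enzyme of heme synthesis, followed, from 22.3 ± 0.274 to 37.8 ± 0.567 FPKM. Of the 3 IRP control genes (Aco1, Ireb2 and Fbxl5), 2 rose and 1 fell from P0 to P5, where 34% of all genes tested rose and 22.6% fell. All 3 fell from P5 to P10, where 30.5% of all genes tested fell. From P0 to P10, 1 rose and 1 fell, where 41% of all genes tested rose and 31.3% fell.

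In the table of Pri-Hep and Hep-Orgs the iron genes stood at nearly the same level in all 12 libraries. Fth1 was at 1551, 1586 and 1547 FPKM in Pri-Hep, 1559, 1629 and 1592 at P1, 1626, 1534 and 1603 at P5, and 1612, 1589 and 1571 at P10. Ftl1 was between 607 and 668 FPKM, and Cp between 549.98 and 576 FPKM. The groups of Fth1 overlapped throughout, and those of Ftl1 overlapped except that its P5 libraries, at 635, 607 and 644 FPKM, were all below Pri-Hep at 649.8, 648.7 and 653 FPKM (log2 difference -0.05, limma adjusted p = 0.562). Trf was at 14.4, 14.3 and 14.5 FPKM in Pri-Hep and between 14.2 and 16.3 in the Hep-Orgs.

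The lowest and highest of the 12 libraries were 8.48 and 9.69 FPKM for Tfrc, 5.13 and 6.13 for Slc40a1, 4.13 and 4.88 for Slc11a2, and 1.95 and 2.32 for Heph. Tfr2 was at 0.313 to 0.561 FPKM, or 26 to 65 fragments, and its P1 mean of 0.551 FPKM, with no overlap, was above the 0.434 of Pri-Hep, without a test. Hamp had no fragment in any Pri-Hep library, which allows up to 0.403 to 0.474 FPKM at 3 fragments, and 0 to 5 fragments in each Hep-Orgs library, with 5 of 9 above 0. Hamp2 had none in any of the 12 libraries. With both groups near the floor, no fold is given for Hamp.

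**Figure D4:**
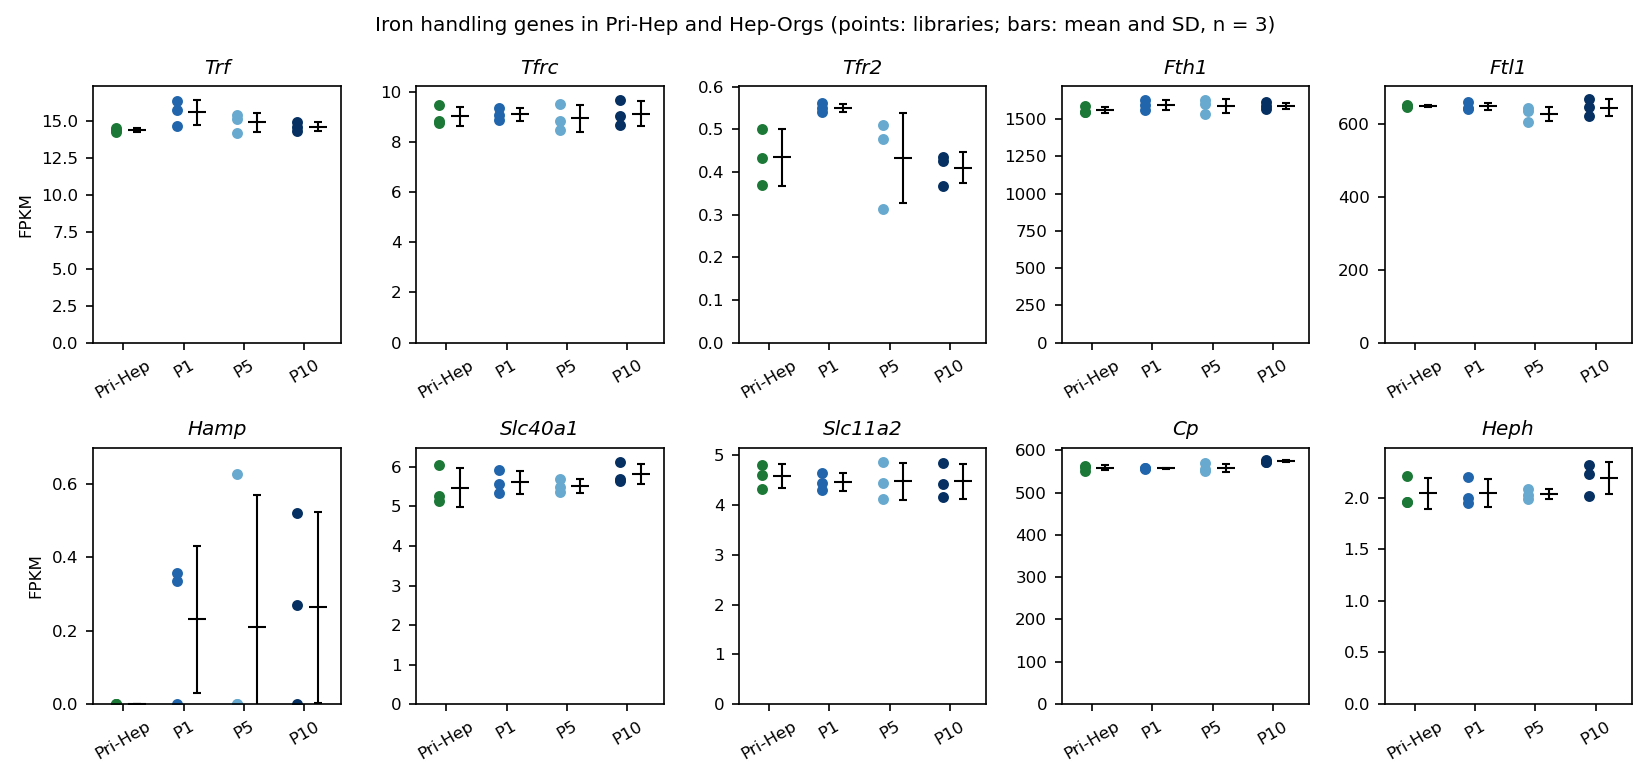
FPKM of the 10 iron handling genes in Pri-Hep and in Hep-Orgs at P1, P5 and P10, 1 panel per gene with its own linear axis from 0; points are the 3 libraries of a group and bars the mean and SD. The groups lie at like levels, and Hamp is at 0 in Pri-Hep. Cp at P10 is above all libraries of the other groups (means of 574 against 557 to 558 FPKM).

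Of the 10 genes, 8 passed the filter of at least 1 FPKM in at least 3 libraries, and Tfr2 and Hamp did not. None of the 8 was called in any comparison of that table. For all Hep-Orgs against Pri-Hep the log2 differences were -0.03 to 0.06 with SE of 0.0142 to 0.0492, and the smallest limma adjusted p was 0.646. In that comparison 0 of 10986 genes (0%) were called, and 966 had an unadjusted p under 0.05. Calls were 1 gene (0.0091%) at P1 against Pri-Hep, 1 (0.0091%) at P5 and 0 (0%) at P10, with 911, 1184 and 730.0 genes at an unadjusted p under 0.05. Between passages calls were 0 (0%) for P5 against P1, 3 (0.0273%) for P10 against P5 and 0 (0%) for P10 against P1, with 436, 1266 and 986 genes at an unadjusted p under 0.05.

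Among the 8 genes tested the largest log2 difference in that table was 0.11, in Trf at P1 against Pri-Hep (SE 0.04, limma adjusted p = 0.494), where the P1 libraries at 14.7, 15.8 and 16.3 FPKM were all above Pri-Hep. Cp at P10 was at 576, 572.1 and 572.4 FPKM, above all libraries of the other groups. The P5 libraries were at 569, 549.98 and 555 FPKM, and the highest in Pri-Hep and at P1 were 562.7 and 558.5 FPKM. The log2 difference of P10 was 0.04 against each of P5, Pri-Hep and P1 (limma adjusted p = 0.416, 0.75 and 0.505 in that order). Any pair of these libraries differed by more than counting noise. Chi-square values per degree of freedom were 1.9 to 3.04 within groups (median 2.17) and 1.81 to 4.36 between groups (median 2.48). None was thus taken as a library deposited more than once. The check cannot tell separate samples from repeat preparations of the same RNA. Of the 73 other iron genes 62 were tested, and none was called in any comparison of this table. Macrophage markers summed to 7.345 to 9.861 FPKM in these libraries.

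The Smart-Seq libraries held 1 organoid shape each, so their differences have no replicate check and no test. Grape-like organoids had the highest level of most iron genes, and the plasma proteins Trf and Cp were highest in intermediate organoids. Compared with round-like organoids, 7 of the 10 genes were at least 2-fold higher on FPKM + 1 in grape-like organoids and none was lower, where 12.9% of 12595 genes were higher and 8.82% lower. In intermediate against round-like organoids 3 genes were higher and none lower, where 3.85% were higher and 2.54% lower. In grape-like against intermediate organoids 4 were higher and 2 lower, where 9.71% were higher and 7.15% lower. The median log2 ratios of the 10 genes were 1.25, 0.53 and 0.63, beside -0.13, -0.12 and 0.03 for all genes.

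**Figure D5:**
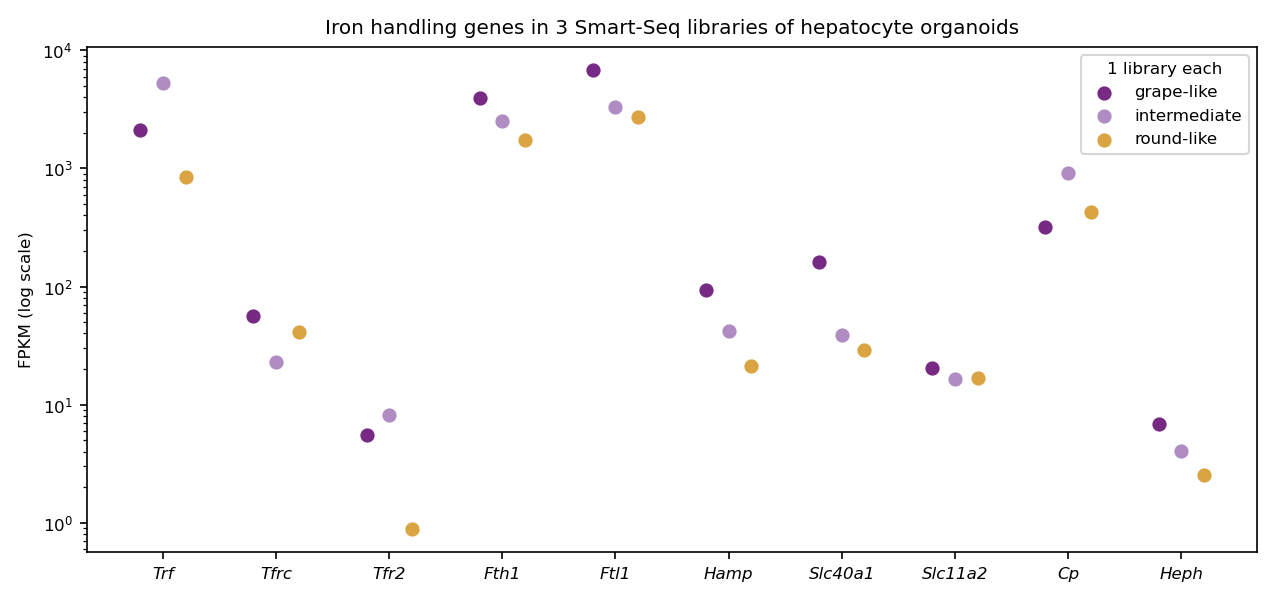
FPKM (vertical axis, log scale) of the 10 iron handling genes in the Smart-Seq libraries of grape-like, intermediate and round-like organoids, 1 point per library and no error bars since there are no replicates. Grape-like organoids are highest for Fth1, Ftl1, Hamp, Slc40a1, Tfrc, Slc11a2 and Heph, and intermediate organoids for Trf, Tfr2 and Cp.

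Trf was at 2109 FPKM in grape-like, 5272 in intermediate and 843 in round-like organoids, so that intermediate was 6.26-fold round-like. Tfr2 was at 5.55, 8.23 and 0.877 FPKM, with intermediate 9.39-fold round-like (95% exact counting interval 7.92 to 11.2). Cp was at 319, 908 and 425 FPKM, and it was the only one of the 10 genes with less in grape-like than in round-like organoids, by 1.33-fold. Trf, Tfr2 and Cp had their highest level in the intermediate library, which also had the highest hepatocyte sum of 10450 FPKM, against 6072 in grape-like and 1409 in round-like organoids. That library also had the highest cholangiocyte sum, 3468 FPKM against 879.1 in grape-like and 2869 in round-like organoids. In round-like organoids the cholangiocyte sum was above the hepatocyte sum, against the label of hepatocyte organoids. Cp followed the order of the cholangiocyte sum. The part of either sum in the levels of Trf, Tfr2 and Cp was not tested.

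Slc40a1 was at 161 FPKM in grape-like, 38.9 in intermediate and 29.0 in round-like organoids, 5.55-fold higher in grape-like than in round-like (95% counting interval 5.43 to 5.67). Hamp was at 93.8, 41.9 and 21.1 FPKM, a ratio of 4.45 for grape-like to round-like (3.95 to 5.02). Ftl1 was at 6815, 3322 and 2733 FPKM, and Fth1 at 3917, 2506 and 1729 FPKM, so both ferritin chains followed the same order. Heph was at 6.80, 4.07 and 2.51 FPKM, Tfrc at 56.2, 22.9 and 41.3, and Slc11a2 at 20.4, 16.4 and 16.9. Fragments per gene were estimated from gene lengths of the other table, and with amplified cDNA and no molecular identifiers these intervals cover counting error only.

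Ferroportin, ferritin and heme oxygenase are also genes of the liver macrophage, and macrophage markers moved with them. The 12 macrophage markers summed to 10920 FPKM in grape-like, 3151 in intermediate and 1750 in round-like organoids, with Adgre1 at 369, 121 and 75.7 FPKM and C1qa at 771, 172 and 112, and with 11 to 12 of the 12 at 1 FPKM or more. In grape-like organoids the macrophage sum was above the hepatocyte sum of 6072 FPKM. Stellate markers summed to 1396, 359.4 and 306.4 FPKM. Their part in the levels of Slc40a1, Fth1 and Ftl1 was not tested.

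Of 70 other iron genes past the filter in the Smart-Seq table, 16 were at least 2-fold higher in grape-like than in round-like organoids and 5 lower, beside 12.9% higher and 8.82% lower of all genes, with a median log2 ratio of 0.07. Cd163, the macrophage receptor for hemoglobin bound to haptoglobin, was at 158, 25.9 and 15.4 FPKM in grape-like, intermediate and round-like organoids. Lrp1, a receptor for hemopexin, was at 99.7, 23.5 and 17.8 FPKM and Hmox1, heme oxygenase, at 252, 99.9 and 52.6 FPKM. Hpx, hemopexin, was at 183, 192 and 41.7 FPKM, highest in the intermediate library. Ltf, lactoferrin, went the other way at 2.33, 54.1 and 37.7 FPKM.

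Side by side over all 10 groups, Trf ranged from a mean of 14.4 FPKM in Pri-Hep to 5272 in the intermediate library, and its 4 groups from the table of Pri-Hep and Hep-Orgs were below all others. Cp had another order, with 557 to 574 FPKM as means of Pri-Hep and Hep-Orgs, above the mean of 436 FPKM in Cho-Orgs at P0 and 46.8 at P10. Hamp was highest in Cho-Orgs at P0 (136 ± 81.6 FPKM), whose range held the grape-like library at 93.8 FPKM. Fth1 spanned the least of the abundant genes, from 1129.9 FPKM in Cho-Orgs at P10 to 3917 in the grape-like library. Neighbours among Pri-Hep and Hep-Orgs were not called for any of the 8 genes tested, though the groups of Trf, Ftl1 and Cp named above did not overlap. Since gene lengths of the other tables are not in the files, orders across tables are descriptions.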

How the data were processed

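RNA was measured in 21 bulk poly(A) libraries and 3 Smart-Seq libraries. The authors deposited FPKM in 3 tables. The submitters' processing notes name featureCounts 2.0.3, edgeR 3.40.2 and mm10, and the aligner is not given in the sources used here. Genes of at least 1 FPKM in at least 3 libraries were tested per table on log2(FPKM + 1) with limma 3.58.1 in R 4.3.3 (trended eBayes, two-sided, all groups of a table in 1 fit) and Benjamini-Hochberg adjustment at 0.05. FPKM times gene length gave whole fragments for 100.0% of values (within 0.02 fragments) in the table of Pri-Hep and Hep-Orgs, which were used for a voom alternative. For the other tables depth was estimated from the steps between low values, with lengths of the first table, so their fragment counts are approximate. Counting intervals and the floor of 3 fragments cover counting error only. Smart-Seq libraries got ratios and no test, with at least 2-fold on FPKM + 1 as the call. Other pseudocounts, filters, scalings, sample sets, a replicate block and leaving out replicates were tried. The method was tested on simulated data with the same spread in every group. That test does not cover genes such as Trf, Hamp, Slc40a1 and Cp, whose P0 libraries spread more than the later ones.

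The 10 genes, the list of 73 other iron genes and the marker lists were chosen with earlier results of these data known. All 10 genes were described. Of the other iron genes, the 3 with the largest called change in each direction on log2(FPKM + 1) were named per Cho-Orgs comparison, among those without overlap. For Smart-Seq those of at least 10 FPKM with a log2 ratio of at least 2 in size were named. Sequences came from GENCODE M21 and RefSeq (GRCm38), and 9 of the 10 genes had the same coordinates in GENCODE M21 as in the deposited table. Values were joined with pandas 2.3.3 and numpy 2.4.6 in Python 3.11.15, exact tests used scipy 1.17.1, and plots were drawn by matplotlib 3.10.9. The summed level of the erythroid marker list is not reported here.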

Additional observations from a re-analysis of the deposited data

How the results depend on the processing

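In the Cho-Orgs 323 alternative values of the 10 genes were computed, of which 303 kept direction and side of the threshold, 10 lost the call, 9 gained it and 1 changed sign (Slc11a2 from P0 to P5, which ran from -0.17 to 0.00427 without each replicate in turn). Without each replicate in turn, the genes called from P0 to P5 numbered 4268 to 5269. For all Hep-Orgs against Pri-Hep, differences near 0 changed sign without being called: without each replicate in turn Tfrc ran from -0.00309 to 0.0136, Cp from -0.00367 to 0.0207, Slc11a2 from -0.0567 to 0.0108 and Heph from -0.00223 to 0.0703 (-0.00221 without replicate 1), and with voom Tfrc was -0.000183. None of the 8 iron genes tested there was called under any alternative.

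Over all genes of the Hep-Orgs table, the calls without a filter were 4 for P5 against Pri-Hep, 2 for P10 against Pri-Hep, 1 for all Hep-Orgs against Pri-Hep, 1 for P5 against P1 and 0 for P10 against P5. P5 against Pri-Hep gave 7 with a mean of at least 5 FPKM and 2 with TPM. Without a trend in eBayes, P1 and P5 against Pri-Hep and P10 against P5 gave 0 each, and the last also gave 0 in a fit of its groups alone. Leaving out each replicate gave 0 to 3 for P1 against Pri-Hep, 0 to 0 for P5 against Pri-Hep, 0 to 3 for P5 against P1 and 0 to 0 for P10 against P5. With voom on recovered fragments, P1 and P5 against Pri-Hep gave 30 and 39, all Hep-Orgs 12, P10 against P5 28 and P10 against P1 29. The cause was not tested.

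Samples with the same replicate number did not deviate together (median correlation -0.00155 over 18 pairs in the Hep-Orgs table and -0.00626 over 9 in the Cho-Orgs). With a replicate block the calls of P1 and P5 against Pri-Hep and of P10 against P5 were 0 each. In the Cho-Orgs comparisons the block gained the call of Slc40a1 from P0 to P5 (adjusted p = 0.0464, limma), and no other iron gene's call changed. The exact permutation p for the slope of the ferritin ratio was 0.185 with that block. Of 90 alternative Smart-Seq ratios, 38 moved beyond counting error, all under TPM or median-ratio scaling. None that met the call of at least 2-fold in the main setting changed sign, and sign changes of smaller ratios were not counted. Slc11a2 in intermediate against round-like organoids was at -0.04 in log2 (16.4 against 16.9 FPKM). With median-ratio size factors of 0.9493 for intermediate and 1.082 for round-like, that difference turns positive. Depth limits Hamp in Cho-Orgs at P10 and in all 12 libraries of the Hep-Orgs table, where it had at most 5 fragments per library.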
